A study of Rattus norvegicus with 6 samples.

Results

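The enzymes of glycolysis and of the TCA cycle, with the pyruvate dehydrogenase gate that joins them and 3 enzymes of the malate-aspartate shuttle, were examined in the retina of diabetic and control rats. Members were taken by exact gene symbol from a list of 39 genes, and 36 of them had a row among the 34170 rows of the expression table. They comprise 18 of 19 listed glycolysis genes, 10 of 12 listed TCA cycle genes, all 5 genes of the pyruvate dehydrogenase gate and all 3 shuttle genes. Gapdh, Idh3b and Ogdh matched no row by symbol. Each of the 36 occurred once, and all 36 passed the filter on low values, set at 0.5 FPKM averaged over libraries. FPKM divides a gene's fragments by its length and by the size of the library.

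Retinas came from 6 male Sprague-Dawley rats, an outbred stock, and each library is from a separately weighed animal. The 3 control rats, labelled WT, had received citrate buffer by intraperitoneal injection. The 3 diabetic rats had received streptozotocin in 5 daily doses of 60 mg/kg, following 12 h without food, and counted as diabetic above 16.7 mmol/L fasting glucose, measured 1 week after the last dose. Streptozotocin is a toxin that kills the insulin-producing beta cells, so the model is a lack of insulin and not an inherited disease. Body weights in the labels were 103.4, 110.5 and 106 g for control rats 1 to 3 and 100.4, 102.5 and 104 g for diabetic rats 1 to 3. Neither the rats' age nor the interval from diabetes to collection is known here.

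Glycolysis splits glucose into pyruvate in the cytosol, and lactate dehydrogenase turns pyruvate into lactate. Pyruvate dehydrogenase instead feeds pyruvate, as acetyl-CoA, into the mitochondrial TCA cycle, which supplies electrons to the respiratory chain. The retina is known for making lactate from glucose even when oxygen is plentiful, and photoreceptors hold much of that capacity, with Hk2, Pkm and Ldha among their abundant enzymes.

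The fragments behind the FPKM values could be rebuilt and summed to between 12417686 and 19115426 per library, with control 2 and control 3 lowest. The fewest fragments of any member in any library were 150, for Eno2. All 8 rod markers were present, at a mean of 429 FPKM or more. They summed to a range of 33772 to 37727 FPKM in control rats, against 28414 to 32899 FPKM in diabetic rats, without overlap. Of the 8, 7 had a negative log2 difference (median -0.20). So did 49.9% of all genes tested and 81.3% of those above 85.2 FPKM, the members' median level, where the median was also -0.20. The 6 cone markers summed to 607 to 673 FPKM in control rats, against 523 to 588 FPKM in diabetic rats, and 4 of the 6 had a negative log2 difference (median -0.07). The short-wave cone opsin Opn1sw went the other way, with 0.81 and no overlap between groups. The 7 Müller glia markers overlapped at 1554 to 1749 and 1089 to 1556 FPKM, and 3 of the 7 had a negative log2 difference (median 0.06). Negative values also stood in 1 of 5 bipolar, 1 of 5 amacrine, 3 of 5 ganglion cell and 4 of 5 microglia markers. Their medians were 0.03, 0.12, -0.03 and -0.15. Markers of skeletal muscle, a tissue rich in glycolytic enzymes, were low: 5 skeletal muscle markers summed to 12.2 to 13.4 FPKM in control rats, against 13.7 to 16.05 FPKM in diabetic rats. The 6 lens markers summed to 343 FPKM in control 3 and to 8.55 to 42.9 FPKM in the other libraries. The 5 pigment epithelium markers ranged from 42.3 to 90.1 FPKM in control rats and from 39.9 to 91.3 FPKM in diabetic rats. Of 4 endothelial markers 3 had a row. Cldn5 was listed at 0 in every library, while Cdh5 and Vwf averaged 0.24 and 0.79 FPKM over the libraries. What part the rod, cone, lens and pigment epithelium marker levels had in the results below was not tested. In whole tissue, fewer cells of a type and less RNA per cell cannot be told apart.

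The comparison asks whether mRNA of these enzymes differed between diabetic and control retina, and whether glycolysis differed more than the TCA cycle. No member passed: limma with Benjamini-Hochberg adjustment over 16363 genes called 0 of 36 members and 0 genes in all, and the smallest adjusted p of a member was 0.127, for Pgam1. At an unadjusted p below 0.05 there were 9 members, all lower in diabetic retina. Of all genes tested, 19.9% were below that threshold, made up of 10.7% lower and 9.15% higher. Above 85.2 FPKM, the members' median level, 40.5% of tested genes and 44.4% of members were lower at that threshold. Below 85.2 FPKM the shares were 9.08% and 5.56%. A negative log2 difference, diabetic minus control, stood in 28 of the 36 members (77.8%) on the FPKM scale, beside 49.9% of all genes tested. The voom method on rebuilt fragments called 0 members and had 7 at that unadjusted threshold. The 9 were the lower glycolysis genes Eno1, Pgam1, Pkm, Aldoa and Pgk1, the lactate dehydrogenase gene Ldha, the TCA cycle genes Mdh2 and Sucla2, and the cytosolic malate dehydrogenase gene Mdh1. These differences are therefore described as values that did not pass.

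This count moved with the scaling of the libraries. Rescaling to TPM, which sets every library to 1 sum, moved the median of all genes from 0.00 to 0.13 and left 4 members lower (Aldoa, Eno1, Mdh1 and Pgam1) and 1 higher (Cs) at an unadjusted p below 0.05. Over all genes the split was 1757 lower and 1498 higher with FPKM, 692 lower and 3009 higher with TPM, 1201 lower and 2213 higher with voom, and 1425 lower and 1543 higher under quantile normalization. Under quantile normalization no member was lower at that threshold and 2 were higher (Cs and Hk1). Without control 3, the library with the highest lens marker sum, 11 members were lower and 1 was higher (Cs), beside 2128 lower and 1887 higher genes in all. The 9 members kept a negative log2 difference under every alternative run, while 18 of the 36 members changed sign under at least 1 of them.

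**Figure D1:**
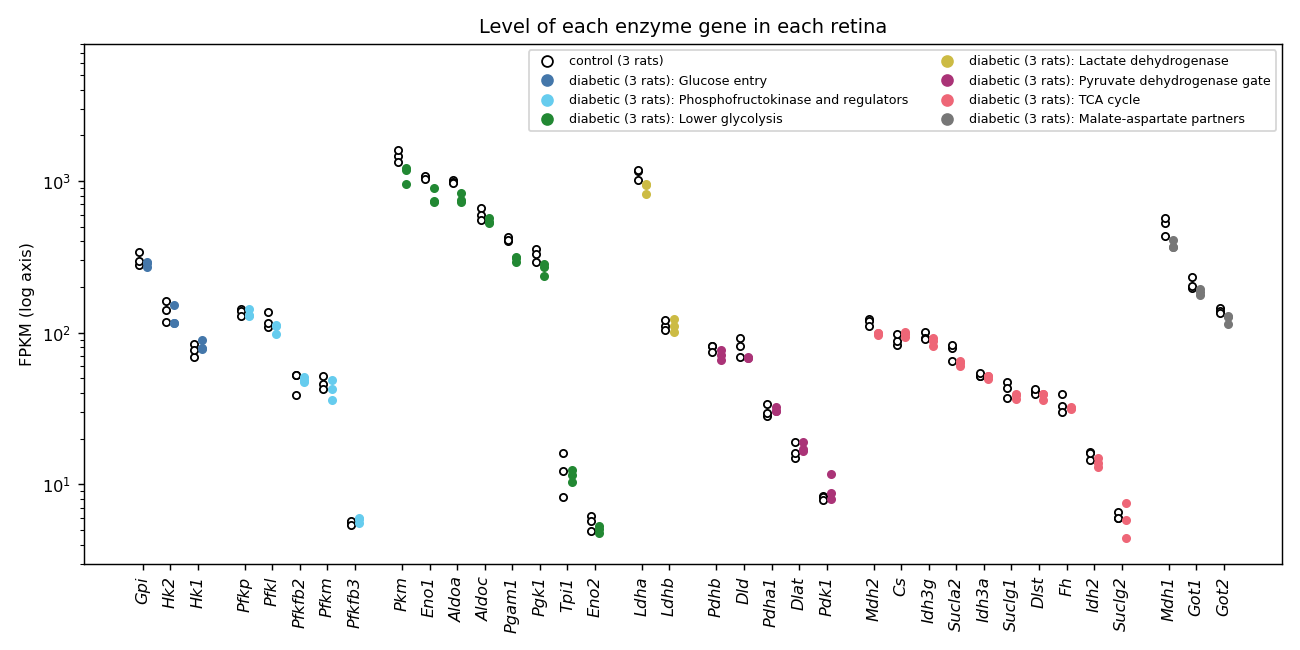
FPKM on a log axis of each of the 36 genes in each library, ordered by role and then by level, with open points for the 3 control rats and filled points for the 3 diabetic rats. Pkm, Ldha, Eno1 and Aldoa lie highest, with all filled points below the open ones, while most TCA cycle genes lie below 100 FPKM with overlapping points.

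Promoters of glycolysis genes are known for carrying the core of the hypoxia response element, to which the HIF factors bind, and the members were examined for its letters because several had lower values together. RefSeq promoter windows on the GRCr8 build were matched by symbol for 34 of the 36 members, in 38 windows of the 250 bases before a transcript start, with more than 1 window for 3 members. The letters ACGTG or GCGTG were searched on both strands; the E-box CACGTG holds ACGTG on each strand and so counts as 2 overlapping matches. A match stood in 13 of 21 windows of glycolysis genes (61.9%), in 4 of 5 windows of the pyruvate dehydrogenase gate, in 2 of 3 windows of shuttle genes (66.7%) and in 3 of 9 windows of TCA cycle genes (33.3%). Over all members it was 22 of 38 windows (57.9%), beside 36.7% of all 33469 windows. Those comparison windows were not matched to the members in base composition or in expression level. The windows of Ldha and Pgam1 hold 4 and 2 matches, and that of Mdh1, with a like difference in level, holds none. Capitals mark the matches, in the orientation of the gene, 5′ to 3′.
Ldha, chr1:106507842-106508091, plus strand: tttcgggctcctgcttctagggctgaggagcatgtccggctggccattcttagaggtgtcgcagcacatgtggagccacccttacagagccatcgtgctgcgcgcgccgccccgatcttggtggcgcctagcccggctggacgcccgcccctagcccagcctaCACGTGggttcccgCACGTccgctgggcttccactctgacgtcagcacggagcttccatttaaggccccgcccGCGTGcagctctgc
Pgam1, chr1:250672902-250673151, plus strand: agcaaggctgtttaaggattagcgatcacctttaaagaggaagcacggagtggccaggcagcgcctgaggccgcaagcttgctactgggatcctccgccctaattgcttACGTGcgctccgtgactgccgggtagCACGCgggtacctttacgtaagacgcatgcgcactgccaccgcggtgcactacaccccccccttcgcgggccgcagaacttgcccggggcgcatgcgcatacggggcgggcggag
Mdh1, chr14:99847228-99847477, minus strand: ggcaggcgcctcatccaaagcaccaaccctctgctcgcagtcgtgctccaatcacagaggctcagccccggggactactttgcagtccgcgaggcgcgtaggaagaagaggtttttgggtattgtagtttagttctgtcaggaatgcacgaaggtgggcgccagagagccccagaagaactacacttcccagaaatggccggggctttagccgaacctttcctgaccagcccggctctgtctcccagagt
The log2 differences of these 3 genes were -0.30, -0.43 and -0.41. Windows with a match and without one thus occurred among members with the larger negative values. Besides Ldha, 3 or more matches stood in the windows of Pdhb, with 5, and of Aldoc, Pdha1 and Dlat, with 3 each. Their log2 differences were -0.15 for Pdhb, -0.14 for Aldoc, 0.02 for Pdha1 and 0.08 for Dlat. Whether matches went with the difference in level was not tested. A match describes letters only, and binding was not measured.

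Lower glycolysis, the run of enzymes from aldolase to pyruvate kinase that harvests ATP, held the members with the largest negative log2 differences, Eno1 and Pgam1. All 8 of its genes had a negative log2 difference, with a median of -0.34, although Tpi1 was at 0.09 with TPM and Aldoc at 0.13 under quantile normalization. The median was then -0.20 with TPM and -0.15 under quantile normalization. With rows of near-identical copies summed, as described below, Eno2 was at 0.89 and Tpi1 at -0.51, so the sign of Eno2 is not firm. In 5 of the 8 the groups did not overlap, where 13.6% of all genes tested lay wholly lower in diabetic retina and 12.7% wholly higher. Above 85.2 FPKM, where these 5 lie, 42.1% of tested genes lay wholly lower.

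Pgam1, the phosphoglycerate mutase that moves the phosphate of phosphoglycerate, was at 427.7, 400.8 and 406.3 FPKM in control rats 1 to 3, against 313.9, 293.5 and 311.2 in diabetic rats 1 to 3. Every diabetic retina was below every control retina, and the spread within each group was small, at 411.6 ± 14.3 against 306.2 ± 11.1 FPKM (SD, n = 3 each). Its log2 difference, for the gene with 2 promoter matches shown, was -0.43 with a standard error of 0.08 and a 95% interval from -0.61 to -0.25. The table places Pgam1 (ENSRNOG00000050585) at 261158261 to 261165808 of chromosome 1, plus strand, in a genome build that no source used here names.

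Eno1, the enolase found in most tissues, was at 1069.7, 1079.1 and 1031 FPKM in control rats 1 to 3, against 895, 742 and 724 in diabetic rats 1 to 3. The controls lay close together, and diabetic 1 was nearer to them than the other diabetic libraries. Its log2 difference was -0.44 ± 0.11 (SE), with an adjusted p of 0.142 (limma).

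Aldoa, the main aldolase, measured 1009.5, 985.3 and 974.1 FPKM in control rats 1 to 3, against 748.6, 721.7 and 829.4 in diabetic rats 1 to 3. Again no diabetic value reached a control value, and the log2 difference was -0.37 ± 0.10 (SE), with an adjusted p of 0.143 (limma). Aldoc, the aldolase of brain and retina, was nearer between the groups, at 604.7 ± 52.1 and 546.7 ± 21.0 FPKM (SD, n = 3 each). Its groups overlapped, and its log2 difference of -0.14 became 0.13 under quantile normalization.

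Pkm, the pyruvate kinase gene that ends glycolysis, had the highest level of all members, with 1470.8, 1589.6 and 1324 FPKM in control rats 1 to 3, against 1189, 961 and 1226 in diabetic rats 1 to 3. The lowest control and the highest diabetic library were close, so the non-overlap was narrow. The log2 difference was -0.38 with a 95% interval from -0.71 to -0.06. Pgk1, the phosphoglycerate kinase on the X chromosome, was at 358.9, 328.5 and 291.3 FPKM in control rats 1 to 3, against 282, 270.7 and 238 in diabetic rats 1 to 3. Here too control 3 and diabetic 1 nearly met, and the log2 difference was -0.31 ± 0.11 (SE).

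Tpi1 and Eno2 stood out by their low level. Tpi1, the triosephosphate isomerase, was at 16.1, 12.3 and 8.21 FPKM in control rats 1 to 3, against 12.4, 10.3 and 11.5 in diabetic rats 1 to 3. Eno2, the neuronal enolase, had 5.63 ± 0.61 FPKM in control rats, against 5.05 ± 0.25 in diabetic rats (SD, n = 3 each), the lowest mean of any member. Both had overlapping groups. The table holds a second row for each enzyme under another symbol. The row described as triosephosphate isomerase-like (LOC100911515) had 48.1 ± 13.6 FPKM in control rats, against 30.3 ± 4.73 in diabetic rats. The row described as gamma-enolase-like (LOC100911625) had 11.6, 6.90 and 4.73 FPKM in control rats 1 to 3, against 5.91, 12.3 and 69.5 in diabetic rats 1 to 3, so diabetic 3 stood far above all others. No source used here says how reads of near-identical copies were divided, so the levels of Tpi1 and Eno2 are uncertain. The table places the row named Eno2 on chromosome 9 and the gamma-enolase-like row on chromosome 4, where RefSeq (GRCr8) has Eno2, so the row named Eno2 may itself be the copy. The Tpi1 row lies on chromosome 4, as in RefSeq. With the rows added together, 23.1% of the triosephosphate isomerase signal lay in the Tpi1 row and 22.4% of the neuronal enolase signal in the Eno2 row. The log2 difference of Tpi1 then went from -0.04 to -0.51 and that of Eno2 from -0.14 to 0.89. Pkm, Eno1 and Ldha also have copy rows, but 94.2%, 96.0% and 94.8% of their summed signal lay in the member's own row, and their differences with copies summed were -0.38, -0.44 and -0.31.

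None of the entry steps had separate groups. Hk1 and Hk2 are hexokinases, which trap glucose in the cell, and Gpi converts glucose 6-phosphate to fructose 6-phosphate. Hk2 was at 140.8, 117.0 and 162.9 FPKM in control rats 1 to 3, against 116.2, 115.2 and 151.7 in diabetic rats 1 to 3, where the third library of each group was highest. Hk1 was at 84.2, 69.4 and 77.1 FPKM in control rats 1 to 3, against 78.9, 77.6 and 89.3 in diabetic rats 1 to 3. Gpi was more abundant, at 305.5 ± 31.3 and 284.0 ± 12.0 FPKM (SD, n = 3 each). The groups overlapped for each of these genes, with log2 differences of 0.09 for Hk1, -0.13 for Hk2 and -0.10 for Gpi. With TPM these were 0.23, 0.00 and 0.04, beside a median of 0.13 for all genes tested. Under quantile normalization Hk1 was also at 0.23. Leaving out single libraries moved Hk1 between 0.02 without control 2 and 0.16 without control 1, and Hk2 between -0.26 without diabetic 3 and -0.02 without control 3.

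Phosphofructokinase, the committing step of glycolysis, is built from the subunits encoded by Pfkl, Pfkm and Pfkp, and Pfkfb2 and Pfkfb3 make or remove its activator fructose 2,6-bisphosphate. None of these 5 genes had separate groups, and their log2 differences ran from -0.17 for Pfkl to 0.05 for Pfkfb3. Pfkp was the most abundant subunit, at 137.1 ± 6.56 and 134.6 ± 7.87 FPKM (SD, n = 3 each), and the 95% interval of its log2 difference ran from -0.21 to 0.16. Pfkfb2, at 48.1 and 49.1 FPKM on average, was well above Pfkfb3, at 5.61 and 5.82 FPKM.

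Ldha and Ldhb encode the subunits of lactate dehydrogenase. Ldha was at 1158, 1173.6 and 1019.9 FPKM in control rats 1 to 3, against 959, 815 and 942 in diabetic rats 1 to 3. No values overlapped, although control 3 was only slightly above diabetic 1, and the log2 difference was -0.30 ± 0.12 (SE). It was -0.17 with TPM and -0.02 under quantile normalization. Ldhb, the subunit of the heart form, was at 110.2, 120.4 and 103.9 FPKM in control rats 1 to 3, against 124.0, 111.2 and 101.4 in diabetic rats 1 to 3, with a log2 difference of 0.01 and overlapping groups.

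Shares within pairs of isoenzyme genes do not depend on a linear scaling of libraries. Ldha made up 91.3%, 90.7% and 90.8% of the FPKM of Ldha and Ldhb in control rats, against 88.6%, 88.0% and 90.3% in diabetic rats. The groups did not overlap, and the difference in mean share was -1.97 percentage points (p = 0.1, exact permutation test, two-sided; adjusted p = 0.267 over 4 pairs). The smallest p possible with 3 rats per group is 0.1. Aldoc made up 37.9 ± 1.60% of the aldolase pair in control and 41.7 ± 2.31% in diabetic retina (SD, n = 3 each), with overlap (p = 0.2, exact permutation test). Hk2 made up 64.4 ± 2.99% and 60.8 ± 1.91% of the hexokinase pair, also with overlap (p = 0.3, exact permutation test). That difference of -3.65 percentage points was -1.92 without control 3. Eno2 made up 0.53 ± 0.05% and 0.64 ± 0.07% of the enolase pair, shares that the copy rows make uncertain.

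**Figure D2:**
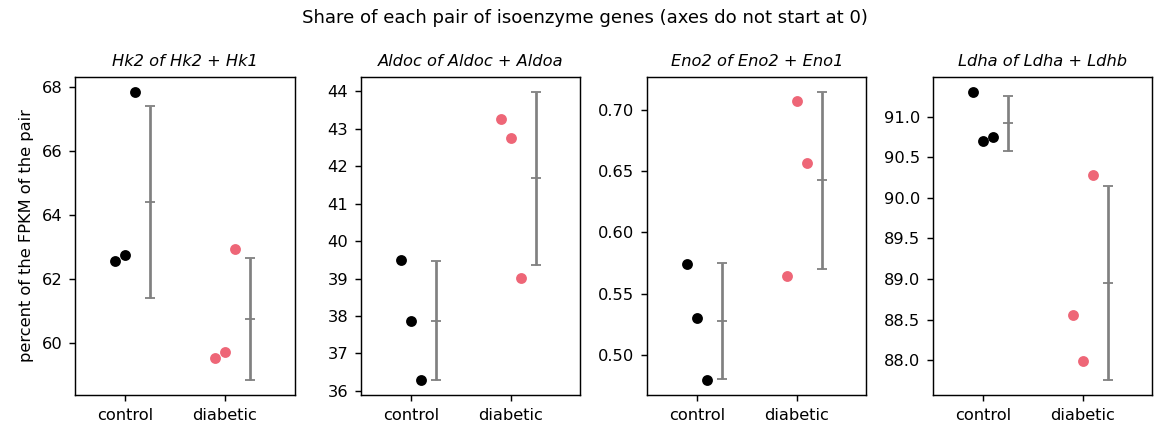
Percent of the summed FPKM of 4 isoenzyme pairs taken by the gene named first, with a point per rat and the mean ± SD beside the points, on axes that do not start at 0. Only in the Ldha panel do the points of the 2 groups not overlap, at 90.7% or more in control and 90.3% or less in diabetic retina.

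The pyruvate dehydrogenase gate showed no common direction. Pdha1 and Pdhb encode the E1 subunits, Dlat the E2 and Dld the E3 component of the complex, and Pdk1 is a kinase that switches it off. Of the 5 genes, 2 had a negative log2 difference, and the median was 0.02. It was 0.16 with TPM, beside 0.13 for all genes tested, and 0.08 under quantile normalization. Dld had the largest negative value, at 81.2 ± 11.5 and 68.9 ± 0.71 FPKM (SD, n = 3 each) and a log2 difference of -0.23 (adjusted p = 0.294, limma). Control 3, at 69.2 FPKM, lay among the diabetic values of 68.3, 68.6 and 69.7 FPKM. Pdk1 had the largest positive value, at 8.40, 8.22 and 7.90 FPKM in control rats 1 to 3, against 11.8, 7.96 and 8.78 in diabetic rats 1 to 3. Diabetic 1 alone was far from the controls, and the log2 difference of 0.19 had a 95% interval from -0.16 to 0.54.

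In the TCA cycle 9 of 10 genes had a negative log2 difference on the FPKM scale. With TPM the median of the 10 was 0.03, beside 0.13 for all genes tested. Only Mdh2 and Sucla2 had groups that did not overlap. Mdh2, the malate dehydrogenase of mitochondria and the most abundant TCA cycle member, was at 123.4, 118.7 and 110.5 FPKM in control rats 1 to 3, against 99.6, 96.9 and 99.2 in diabetic rats 1 to 3. The diabetic values lay close together below all controls, with a log2 difference of -0.25 ± 0.07 (SE) and an adjusted p of 0.152 (limma). Sucla2, a subunit of succinate-CoA ligase, had 79.9, 82.4 and 64.8 FPKM in control rats 1 to 3, against 63.2, 60.1 and 64.7 in diabetic rats 1 to 3. Control 3 was level with diabetic 3, so the separation of Sucla2 was marginal at a log2 difference of -0.26. Cs, the citrate synthase that opens the cycle, was the exception with a positive log2 difference. It was at 82.5, 88.2 and 98.6 FPKM in control rats 1 to 3, against 97.5, 94.3 and 100.6 in diabetic rats 1 to 3, and control 3 lay within the diabetic range. Its log2 difference of 0.12 ± 0.08 (SE) became 0.26 with TPM.

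The other TCA cycle genes had overlapping groups. Idh3a, the catalytic subunit of the NAD-linked isocitrate dehydrogenase, was nearly level at 52.6 ± 1.51 and 51.0 ± 1.17 FPKM, and the 95% interval of its log2 difference ran from -0.20 to 0.11. Its partner Idh3g had -0.12, the NADP-linked Idh2 had -0.16, and Dlst, the E2 component of the oxoglutarate dehydrogenase complex, had -0.10. Fumarase, Fh, had -0.08, and Suclg1, the shared subunit of succinate-CoA ligase, had -0.14. Suclg2, its GTP-linked partner and the TCA cycle member of lowest level, was at 6.003, 6.60 and 6.01 FPKM in control rats 1 to 3, against 7.50, 5.85 and 4.44 in diabetic rats 1 to 3, with diabetic 1 above and diabetic 3 below all controls. With TPM the log2 differences of Idh3a, Idh3g, Dlst, Fh and Suclg2 were positive, at 0.09, 0.02, 0.04, 0.05 and 0.04. All of these lay below the median of all genes tested with TPM, 0.13.

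The malate-aspartate shuttle carries the electrons that glycolysis leaves on cytosolic NADH into mitochondria. Mdh1, its cytosolic malate dehydrogenase, was at 525.3, 568.0 and 435.7 FPKM in control rats 1 to 3, against 410.1, 366.2 and 368.4 in diabetic rats 1 to 3. All diabetic values were lower, though diabetic 1 came near control 3. In this gene, whose promoter window holds no match, the log2 difference was -0.41 ± 0.12 (SE) with an adjusted p of 0.158 (limma). The aspartate aminotransferase genes Got1, cytosolic, and Got2, mitochondrial, also had groups without overlap. Got1 was at 211.1 ± 20.4 and 185.4 ± 8.48 FPKM and Got2 at 139.5 ± 5.11 and 123.9 ± 8.06 FPKM (SD, n = 3 each), with log2 differences of -0.18 and -0.17. Under quantile normalization these were 0.05 and 0.00.

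**Figure D3:**
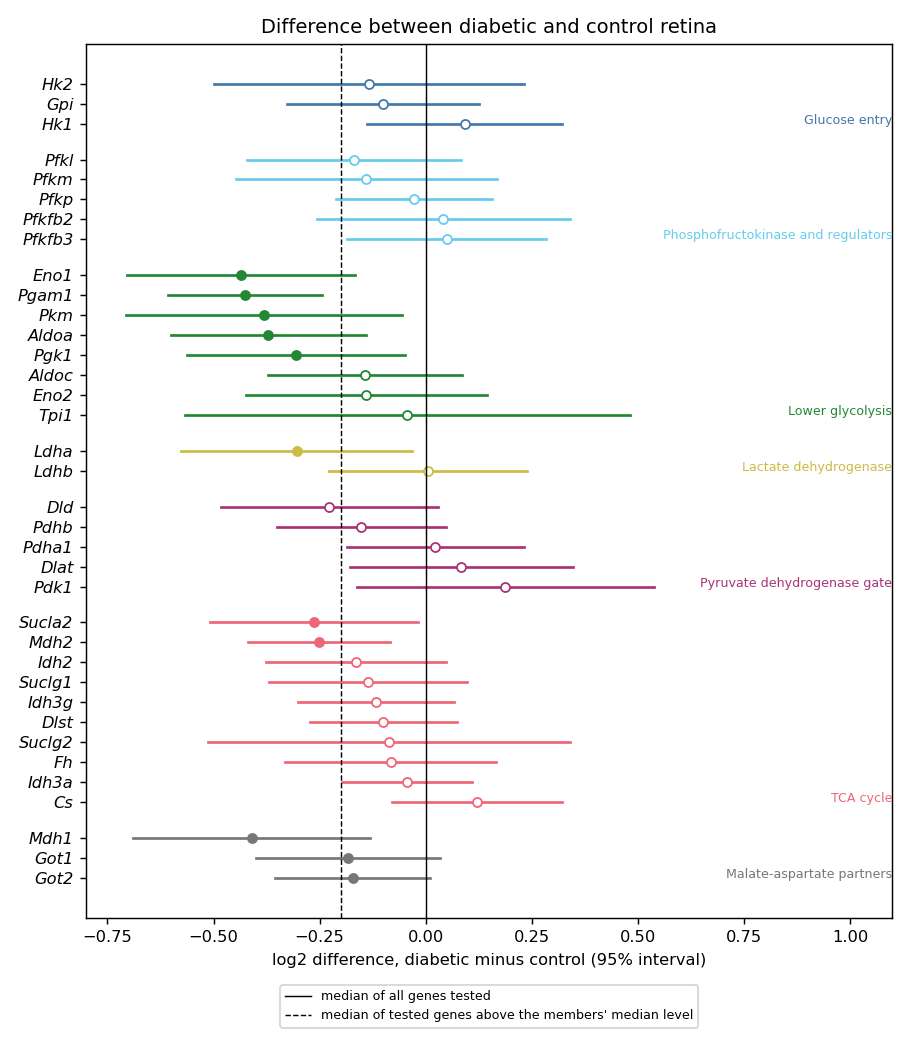
Log2 difference, diabetic minus control, with the 95% interval from limma for each of the 36 genes, by role; filled points have groups that do not overlap in FPKM, and lines mark the median of all genes tested and of the tested genes above the members' median level of 85.2 FPKM. The 11 filled points (30.6% of members) all lie below 0 and none passed over all genes. Of all genes tested, 13.6% lay wholly lower in diabetic retina and 12.7% wholly higher. Above 85.2 FPKM 42.1% of tested genes and 55.6% of members lay wholly lower, and below it 12.0% and 5.56%. With TPM all genes shift up by 0.13, and Got1 and Got2 are above 0 under quantile normalization.

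Set against each other, glycolysis and the TCA cycle had similar medians. The median log2 difference was -0.14 over 18 glycolysis genes and -0.11 over 10 TCA cycle genes, beside 0.00 over all genes tested, and the 2 medians were 0.03 apart. With TPM they were -0.00 and 0.03, beside 0.13 for all genes, so that both lay below all genes. Under quantile normalization they were -0.02 and -0.03, beside -0.00 for all genes, close to all genes. In single libraries, against the control mean, the glycolysis median was 0.06, 0.02 and -0.06 in the controls, against -0.10, -0.17 and -0.16 in the diabetic libraries. The TCA cycle median was -0.00, 0.02 and -0.04 in control and -0.08, -0.08 and -0.15 in diabetic retina. In both groups of genes control 3 was the control library nearest to the diabetic ones. Without control 1 the glycolysis median was -0.08 and the difference between the medians changed sign, to 0.02.

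**Figure D4:**
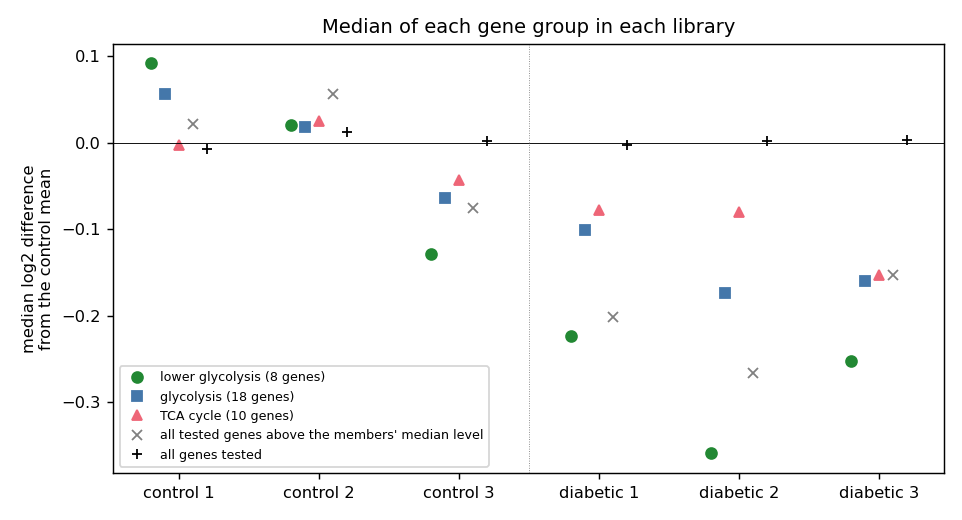
Median log2 difference from the control mean in each library for lower glycolysis, glycolysis, the TCA cycle, all genes tested and the tested genes above the members' median level. Lower glycolysis lies between -0.22 and -0.36 in diabetic libraries on the FPKM scale, while all genes tested stay near 0. The tested genes above the members' median level lie at -0.20, -0.27 and -0.15 in diabetic 1 to 3. With TPM the TCA cycle median over the groups is 0.03, beside 0.13 for all genes tested, and with quantile normalization glycolysis is at -0.02.

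Summed levels separated the pathways more than medians did, because abundant genes weigh most in a sum. The 18 glycolysis genes summed to 7227, 7113 and 6601 FPKM in control and to 5947, 5257 and 5783 FPKM in diabetic retina, and the 10 TCA cycle genes to 580.4, 577 and 552 FPKM and to 527, 523 and 527 FPKM. Both sums were lower in every diabetic retina. A share of all FPKM does not depend on a linear scaling of a library. It can change under quantile normalization, where the glycolysis median was -0.02. As such a share, glycolysis took 1.39%, 1.29% and 1.28% in control rats, against 1.25%, 1.12% and 1.16% in diabetic rats. The TCA cycle took 0.11 ± 0.003% in both groups. The glycolysis sum was 12.5, 12.3 and 12.0 times the TCA cycle sum in control and 11.3, 10.05 and 10.97 times in diabetic retina, again without overlap. The difference of the mean ratios was -1.48, and leaving out single libraries gave values from -1.74 without diabetic 1 to -1.12 without diabetic 2. Of the glycolysis sum, Pkm, Ldha, Eno1, Aldoa and Aldoc made up between 71.9% and 76.3% in every library, so the ratio mostly describes these 5 genes. All 5 averaged above 500 FPKM, where the 82 tested genes had a median log2 difference of -0.27. From 50 to 100 FPKM the median of 1008 tested genes was -0.12. Whether the ratio differed beyond this trend with level was not tested, and the ratio was not computed under quantile normalization.

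The size of the difference went with the level of the gene, among the members and in the whole table. Across the 36 members the Spearman correlation of the log2 difference with the mean FPKM was -0.64, and across all 16363 genes tested it was -0.23. Genes share libraries and scaling, so these are descriptions without a test. Of 862 tested genes above 85.2 FPKM, the median level of the members, 81.3% had a negative log2 difference, with a median of -0.20 (-0.06 with TPM and -0.01 under quantile normalization), and 42.1% lay wholly below control. Among the 18 members above that level 88.9% were negative, the median was -0.18 (-0.04 with TPM and 0.00 under quantile normalization), and 55.6% lay wholly below control. Below that level the 18 members had a median of -0.08 with 5.56% wholly below control, beside a median of 0.01 and 12.0% over 15501 genes. The abundant members and other abundant genes thus had the same sign for the most part.

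Read against genes of like level, lower glycolysis and glucose entry lay for the most part on opposite sides. In bands of mean FPKM, all tested genes from 200 to 500 FPKM had a median log2 difference of -0.25 (207 genes) and those above 500 FPKM had -0.27 (82 genes). In lower glycolysis 7 of 8 genes lay below the median of their band, and Aldoc was the exception. The 7 include Tpi1, at -0.04 relative to its band, and Eno2, at -0.20. The copy rows make both uncertain, with log2 differences of -0.51 for Tpi1 and 0.89 for Eno2 when summed. Pgam1 and Eno1 each lay 0.17 below their band, Aldoa 0.10 and Pgk1 0.05. All 3 glucose entry genes lay above their band, Hk1 by 0.21, Gpi by 0.15 and Hk2 by only 0.04. So did Ldhb by 0.18, Pfkp by 0.15 and Cs by 0.24. Over all members 21 lay below and 15 above. In the TCA cycle it was 7 below and 3 above, with a median of -0.05 relative to the band. Gene length went with the difference as well, with a Spearman correlation of 0.25 over the members and 0.25 over all genes. With the length trend of each library removed, lower glycolysis had a median of -0.27 and Pgam1 and Eno1 had -0.37 and -0.39.

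**Figure D5:**
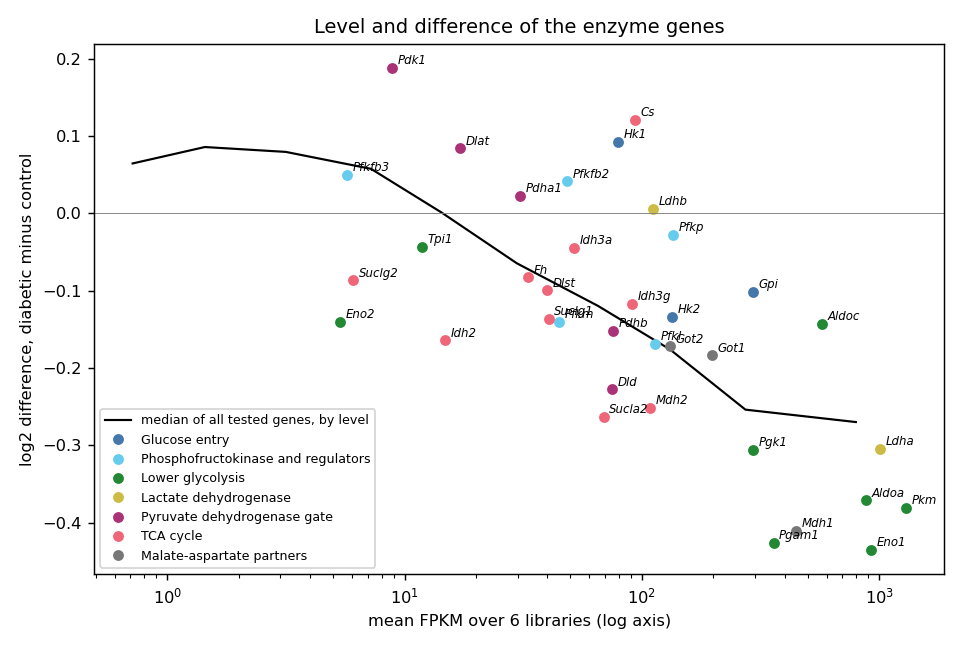
Log2 difference, diabetic minus control, against mean FPKM on a log axis for the 36 genes, coloured by role, with a line through the medians of all tested genes in bands of level. The line falls from 0.06 at the lowest level to -0.27 above 500 FPKM on the FPKM scale, and Eno1, Pgam1, Mdh1 and Pkm lie below it while Cs, Hk1 and Ldhb lie above it.

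A further 53 genes of glucose and pyruvate metabolism were examined, of which 50 had a row and 41 passed the filter on low values. Of these, 30 (73.2%) had a negative log2 difference, beside 49.9% of all genes tested. The median was -0.10, beside 0.00 for all genes, and with TPM it was 0.04, beside 0.13. After adjustment over all genes limma called 0. At an unadjusted p below 0.05, 9 (22.0%) were lower and 2 higher, beside 10.7% lower and 9.15% higher of all genes tested. Mpc1 and Mpc2, which form the carrier that brings pyruvate into mitochondria, were lower, at 75.5 ± 11.3 against 56.5 ± 2.31 FPKM and 318.6 ± 53.2 against 237.6 ± 4.89 FPKM (SD, n = 3 each). Sdhb, the iron-sulfur subunit of succinate dehydrogenase, had a log2 difference of -0.29, the malic enzyme gene Me2 had -0.27, and Bpgm, the bisphosphoglycerate mutase, had -0.22. The pentose phosphate genes Pgls, Rpia and Taldo1 had -0.38, -0.37 and -0.24.

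Pck2, the phosphoenolpyruvate carboxykinase of mitochondria, had the largest value in that list. It was at 8.38, 6.48 and 9.07 FPKM in control rats 1 to 3, against 13.3, 11.9 and 15.5 in diabetic rats 1 to 3, a log2 difference of 0.73 ± 0.15 (SE) with an adjusted p of 0.128 (limma). Every diabetic retina was above every control. The 3 mitochondrial carriers of the malate-aspartate shuttle in the list had no common direction. Slc25a11, which exchanges malate for oxoglutarate, was at 100.0 ± 2.02 and 84.6 ± 7.46 FPKM with a log2 difference of -0.24. Slc25a12, which exchanges aspartate for glutamate, was at 48.1 ± 2.16 and 55.6 ± 4.35 FPKM with 0.21. Its paralogue Slc25a13 was low, at 2.67 ± 1.13 and 2.20 ± 0.59 FPKM, and had -0.18 with overlapping groups. Enzymes that mark gluconeogenic tissue or liver were near or at the bottom of the table: Pck1 and Fbp1 were listed at 0 in every library, and Pklr was below the filter.

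Rows whose description names an enzyme of the 3 unmatched symbols were read separately and are not counted above. The more abundant of the 2 rows described as glyceraldehyde-3-phosphate dehydrogenase (LOC108351137) had 2136 ± 153 FPKM in control rats, against 1646 ± 121 in diabetic rats (SD, n = 3 each), a log2 difference of -0.38. The other row had 444.7 ± 26.0 FPKM in control rats, against 370.6 ± 23.6 in diabetic rats, a log2 difference of -0.26. Tested genes above 500 FPKM had a median of -0.27, and those from 200 to 500 FPKM had -0.25. The row spelled Idh3B, an isocitrate dehydrogenase subunit, had -0.19, and the row described as 2-oxoglutarate dehydrogenase-like (LOC103693780) had 0.08. None of these passed in limma, and they were chosen after their values were seen.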

How the data were processed

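Per the labels' protocols, poly-A RNA of 6 retinas was sequenced as read pairs of 150 bp, from a kit with no strand marking named. The submitters' processing notes name HISAT2 2.0.5 as a tool; no source used here names the counter, build or annotation. The deposited table gives FPKM by gene and library beside gene lengths, per the file headers. FPKM times length was a whole multiple of 1 step per library, with 100% of low values within 0.05 of a whole number. Rebuilt fragments give the depth. Genes averaging 0.5 FPKM or more were tested on log2(FPKM + 0.5), which understates changes of low genes, with limma 3.58.1 in R 4.3.3: group as the only term, an intensity trend, moderated two-sided tests, Benjamini-Hochberg over all genes and a threshold of 0.05. Intervals are 95%. p-values rest on the spread between 3 rats per group. Isoenzyme shares used an exact permutation test. All members are reported; values per library are given for those at an unadjusted p below 0.05, the isoenzyme pairs and the extremes of each pathway, and other pathway genes at that p. Members and lists were chosen with earlier results of these data known. Alternatives were other pseudocounts, filters, scalings, voom, a replicate block and leaving out each library; summing copy rows was added after seeing the data. The functions were tested on simulated data.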

Additional observations from a re-analysis of the deposited data

How the results depend on the processing

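In no alternative did a member pass over all genes. The count of all genes past the threshold was 0, became 2 with voom on rebuilt fragments and ran from 0 to 4 when 1 library was left out (1 without control 2, 4 without diabetic 1, 1 without diabetic 2). Members at an unadjusted p below 0.05 numbered 9, 5 with TPM, 2 under quantile normalization and from 5 to 12 without single libraries, with 5 without control 1 or control 2; the cause was not tested. The glycolysis median of -0.14 was -0.0044 with TPM, -0.020 under quantile normalization and from -0.20 to -0.077 without single libraries. The TCA cycle median of -0.11 was 0.028 with TPM, -0.033 under quantile normalization and -0.060 with voom. Their difference ran from -0.061 to 0.021 without single libraries. The Eno2 share difference of 0.11 percentage points became 2.93 with copy rows summed, where diabetic 3 was far above the rest.

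Of 576 member values under 16 alternatives, 537 kept direction and 39 changed sign. With TPM these were Dlst 0.037, Fh 0.054, Gpi 0.036, Hk2 0.0037, Idh3a 0.093, Idh3g 0.020, Pfkp 0.11, Suclg2 0.041 and Tpi1 0.091, where the median of all genes tested was 0.13. Under quantile normalization they were Aldoc 0.13, Got1 0.051, Got2 0.0016, Gpi 0.11, Hk2 0.040, Idh3a 0.051, Idh3g 0.037, Pfkl 4.1e-06, Pfkp 0.16 and Pfkfb3 -0.018. With voom they were Idh3a 0.0052 and Pfkp 0.022, with the length trend removed Pdha1 -0.00071, Pfkfb2 -0.052, Pfkfb3 -0.051 and Tpi1 0.046, and with copies summed Eno2 0.89. Without single libraries Fh ran from -0.17 to 0.023, Ldhb from -0.068 to 0.077, Pdha1 from -0.026 to 0.10, Pfkfb2 from -0.10 to 0.12, Pfkp from -0.075 to 0.0010, Suclg2 from -0.26 to 0.090 and Tpi1 from -0.29 to 0.17.

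Replicate numbers did not pair the libraries (correlations of same-numbered deviations -0.05, -0.08 and 0.00). With a replicate block 0 members passed and 6 were at an unadjusted p below 0.05, beside 1497 lower and 1293 higher of all 16363 genes. No member's symbol occurred more than once, so summing rows of 1 symbol was not run.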
